A study of Homo sapiens with 4 samples.

Results

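Condensins and type II topoisomerases, the machines that fold and untangle chromosomes for division, were measured as messenger RNA in Myla cells with and without knockdown of FOXM1. The set holds 10 genes of the 58735 in the deposited table and was chosen by gene name: SMC2 and SMC4, the ATPase core of both condensins; NCAPD2, NCAPG and NCAPH of condensin I; NCAPD3, NCAPG2 and NCAPH2 of condensin II; and TOP2A and TOP2B, the alpha and beta forms of topoisomerase II. The Myla line was derived from mycosis fungoides, in which malignant T cells home to the skin. The shFOXM1 group (2 libraries) received lentivirus with a short hairpin RNA against FOXM1 (a transcription factor of the forkhead family that acts in proliferating cells), and the shControl group (2 libraries) received lentivirus with a scrambled hairpin. Both groups got 10 uL of virus medium; the medium was changed at 24 h and RNA was taken 72 h later. The labels state 2 biological replicates per group and name no pairing. They do not say whether the libraries came from separate transductions, or whether both shFOXM1 libraries carry the same hairpin. The p-values thus rest on differences among these libraries alone.

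In textbook terms, condensin is a ring of SMC2 and SMC4 closed by a kleisin subunit (NCAPH or NCAPH2) that carries a pair of HEAT-repeat subunits (NCAPD2 with NCAPG, or NCAPD3 with NCAPG2). It extrudes loops of DNA. Condensin II is nuclear throughout the cell cycle and starts compaction in prophase, while condensin I reaches the chromosomes after the nuclear envelope breaks down. Topoisomerase II cuts one double helix, passes another through the gap and reseals it. TOP2A is made mainly in proliferating cells, where it separates sister chromatids, and TOP2B is made in dividing and resting cells alike and acts at transcribed genes.

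The values are FPKM, fragments scaled by gene length and by the size of the library. The length is a single value per gene, whichever transcripts are made, so comparisons of level between genes are approximate. The reads behind the FPKM values numbered 15017728 and 14680094 in shFOXM1 1 and 2, against 14147084 and 14778639 in shControl 1 and 2. FOXM1 itself stood at 9.27 and 5.59 FPKM in shFOXM1 1 and 2, against 26.5 and 27.6 FPKM in shControl 1 and 2, so the labels and the targeted gene point the same way. The shFOXM1 libraries stood further apart than the shControl libraries: chi-square per degree of freedom between libraries of a group was 36.5 in shFOXM1 and 3.93 in shControl, counting genes whose pair of libraries held 20 or more reads together. Of 8 T cell markers, 6 were measured; CD4 was listed at 0 in all 4 libraries and CD3E had at most 0.138 FPKM.

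All 10 genes had a lower mean in shFOXM1 than in shControl, and in all 10 the higher shFOXM1 library was still below the lower shControl library. Over the 12033 genes tested, 25.9% had that order and 50.1% had a lower mean. The median log2 fold change of the 10 genes was -0.44, on the log2(FPKM + 1) scale used throughout, which understates the change of low genes; the median over all genes tested was -0.00075. None of the 10 passed limma's test, in which 0% of all genes were called in either direction (Benjamini-Hochberg adjusted p under 0.05). At an unadjusted limma p under 0.05, 6 of the 10 were lower, against 8.99% of all genes. In these bulk samples, fewer dividing cells and less of each RNA per cell cannot be told apart. With shFOXM1 1 left out 9 of the 10 passed limma's test, against 16.3% of genes called lower, and with shFOXM1 2 left out 4 passed, against 4.21%; the spread in those fits is that of shControl. Voom on the reads with library weights called TOP2A alone of the 10, against 0.0748% of genes called lower. With 2 libraries against 2, an exact two-sided permutation test of a single value cannot go below 0.333.

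**Figure D1:**
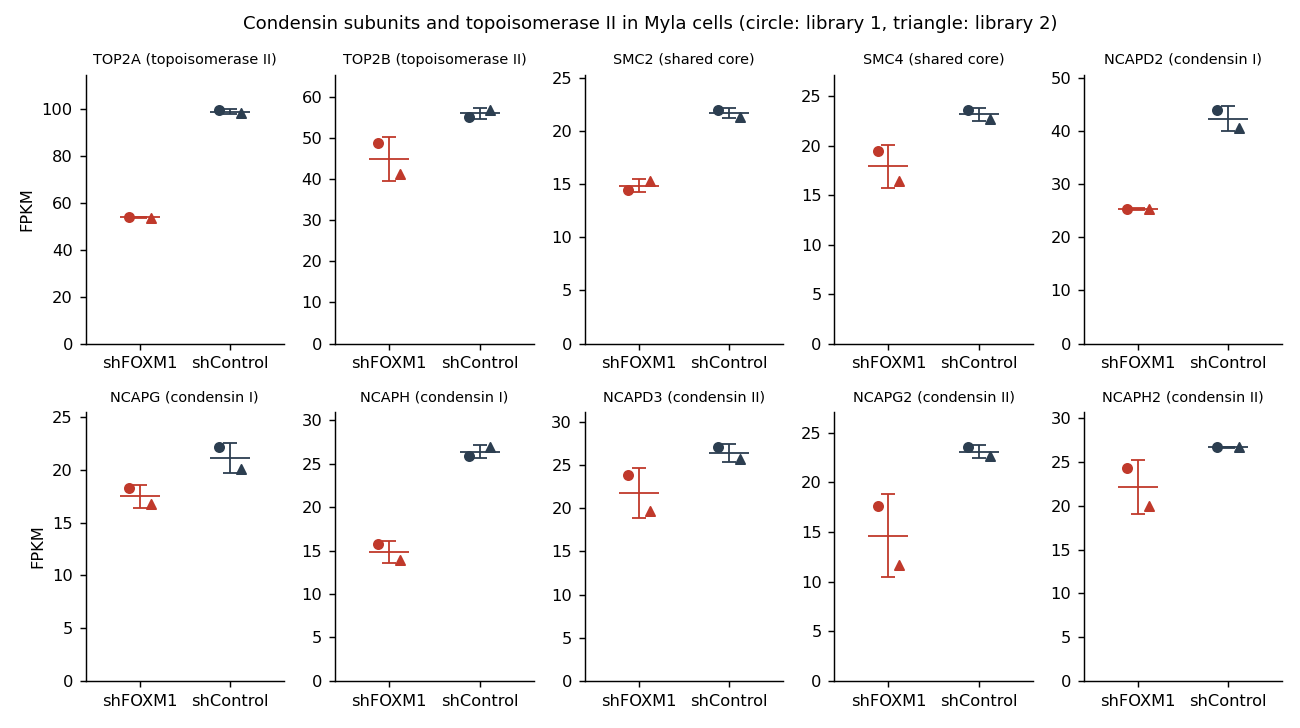
FPKM (y axis, from 0) of the 10 genes in shFOXM1 (red, left) and shControl (dark, right). Each point is a library (circle 1, triangle 2), with the mean as a horizontal line and the SD as a bar (n = 2 each). The TOP2A libraries of each group nearly coincide, at 54 and 53.7 FPKM in shFOXM1 against 99.6 and 98 FPKM in shControl, whereas NCAPG2 spans 17.6 to 11.7 FPKM within shFOXM1.

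TOP2A had the highest level and the lowest fold change of the set. It was at 54 and 53.7 FPKM in shFOXM1 1 and 2, against 99.6 and 98 FPKM in shControl 1 and 2, on 5148 and 5263 reads against 9102 and 9308. The shFOXM1 libraries differed by 0.375 FPKM and the groups were 44 FPKM apart at their nearest points. Counting error was up to 1.39% of the TOP2A value in a library. The totals that the FPKM imply differed from the reads by -1.44% in shFOXM1 1 and 3.8% in shFOXM1 2. The mean level was 0.545 times that of shControl, with a log2 fold change of -0.86 (SE 0.10, 95% interval -1.11 to -0.62), and the gene ranked 18th of all genes by unadjusted p, without passing over all genes (limma, adjusted p = 0.173). TOP2A (ENSG00000131747) is on chromosome 17, minus strand, between 40388516 and 40417950 (GRCh38).

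TOP2B, the form that resting cells also make, differed less and less evenly. It was at 48.8 and 41.3 FPKM in shFOXM1 1 and 2, against 55.2 and 57 FPKM in shControl 1 and 2. The groups did not overlap, but the 7.57 FPKM between the shFOXM1 libraries exceeded the 6.34 FPKM that separated the groups. Its log2 fold change was -0.31 (SE 0.12, 95% interval -0.64 to 0.01; limma, adjusted p = 0.289). Against the shControl mean, shFOXM1 1 lay -0.20 and shFOXM1 2 lay -0.43 on the same scale. TOP2B (ENSG00000077097) is on chromosome 3, minus strand, between 25597905 and 25664907.

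The balance between the forms of topoisomerase II was read within each library, where the scaling of the library cancels. TOP2A stood at 1.11 and 1.3 times the FPKM of TOP2B in shFOXM1 1 and 2, against 1.81 and 1.72 times in shControl 1 and 2, or 1.2 ± 0.137 against 1.76 ± 0.0603 (SD, n = 2 each). The ratio was lower in both shFOXM1 libraries than in either shControl library, with an exact permutation p of 0.333, the smallest that 2 against 2 can give. In no library did TOP2B exceed TOP2A in FPKM.

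Since TOP2A had the lowest fold change of the 10 genes, its promoter is shown whole, with the hexamer of the cell cycle genes homology region in capitals. This element, the CHR, is the known landing site of the MuvB complex, to which FOXM1 and B-MYB bind; the letters searched were TTTGAA, or TTCAAA where it lies on the other strand. The window runs from 250 bases before to 50 bases after the annotated start (RefSeq, GRCh38.p14, chr17:40417847-40418146, minus strand, printed 5′ to 3′ along the gene). Both hexamers and 4 copies of the CCAAT box (letters CCAAT, or ATTGG on the other strand) lie before the start. No CCAAT match overlaps a CHR match. Of the 35116 RefSeq windows of this length, 34.6% held such a box and 0.991% held 4 or more. The cut of 4 is the count in TOP2A itself, so this share describes the window and tests nothing.
TOP2A promoter: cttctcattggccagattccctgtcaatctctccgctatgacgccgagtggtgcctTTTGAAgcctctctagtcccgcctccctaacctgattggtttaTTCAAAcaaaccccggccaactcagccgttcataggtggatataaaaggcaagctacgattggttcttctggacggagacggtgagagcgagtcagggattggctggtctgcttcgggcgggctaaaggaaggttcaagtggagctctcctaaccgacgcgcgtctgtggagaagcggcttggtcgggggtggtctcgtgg

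The core ATPases SMC2 and SMC4, which both condensins share, were lower by different amounts. SMC2 was at 14.4 and 15.3 FPKM in shFOXM1 1 and 2, against 22 and 21.3 FPKM in shControl 1 and 2. Its log2 fold change was -0.52 (SE 0.11, 95% interval -0.79 to -0.24; limma, adjusted p = 0.183). Of the 10 genes, SMC2 alone had a higher FPKM in shFOXM1 2 than in shFOXM1 1. By reads, TOP2A (5148 in shFOXM1 1 and 5263 in shFOXM1 2) and NCAPD2 (2440 and 2497) were higher in shFOXM1 2 as well. SMC4 was at 19.5 and 16.4 FPKM in shFOXM1 1 and 2, against 23.7 and 22.7 FPKM in shControl 1 and 2, with a log2 fold change of -0.36 (SE 0.13, 95% interval -0.69 to -0.02; limma, adjusted p = 0.258). The SMC4 groups were 3.27 FPKM apart, only a little more than the 3.08 FPKM between the shFOXM1 libraries. SMC2 over SMC4, partners in one ring, stood at 0.741 and 0.932 in shFOXM1 1 and 2, against 0.93 and 0.938 in shControl 1 and 2, so that shFOXM1 1 alone stood apart. SMC2 (ENSG00000136824) is on chromosome 9, plus strand, between 104094260 and 104141417 and SMC4 (ENSG00000113810) on chromosome 3, plus strand, between 160399274 and 160434962.

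Within condensin I, the subunits NCAPD2 and NCAPH stood well below shControl while NCAPG stood closer to it. NCAPD2, a HEAT-repeat subunit and the condensin gene with the highest FPKM here, was at 25.4 and 25.3 FPKM in shFOXM1 1 and 2, against 44 and 40.7 FPKM in shControl 1 and 2. NCAPH, the kleisin, was at 15.8 and 13.9 FPKM in shFOXM1 1 and 2, against 25.9 and 26.9 FPKM in shControl 1 and 2. For both genes the gap between the groups was several times the range within either group. NCAPG, the other HEAT-repeat subunit, was at 18.3 and 16.7 FPKM in shFOXM1 1 and 2, against 22.2 and 20.1 FPKM in shControl 1 and 2. Here the groups were only 1.84 FPKM apart, less than the 2.04 FPKM between the shControl libraries.

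In the fit over all genes, NCAPH had a log2 fold change of -0.79 (SE 0.12, 95% interval -1.10 to -0.49; limma, adjusted p = 0.173). For NCAPD2 it was -0.72 (SE 0.11, 95% interval -0.99 to -0.44; limma, adjusted p = 0.173). Their mean levels were 0.562 and 0.598 times those of shControl. NCAPG had -0.26 (SE 0.12, 95% interval -0.56 to 0.05; limma, adjusted p = 0.336), at 0.828 times shControl. NCAPD2 over NCAPG, read within each library, was 1.39 and 1.51 in shFOXM1 1 and 2, against 1.99 and 2.02 in shControl 1 and 2; the groups did not overlap, at the smallest exact permutation p of 0.333. NCAPD2 (ENSG00000010292) is on chromosome 12, plus strand, between 6493356 and 6531955, NCAPG (ENSG00000109805) on chromosome 4, plus strand, between 17810902 and 17844862, and NCAPH (ENSG00000121152) on chromosome 2, plus strand, between 96335787 and 96373845.

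**Figure D2:**
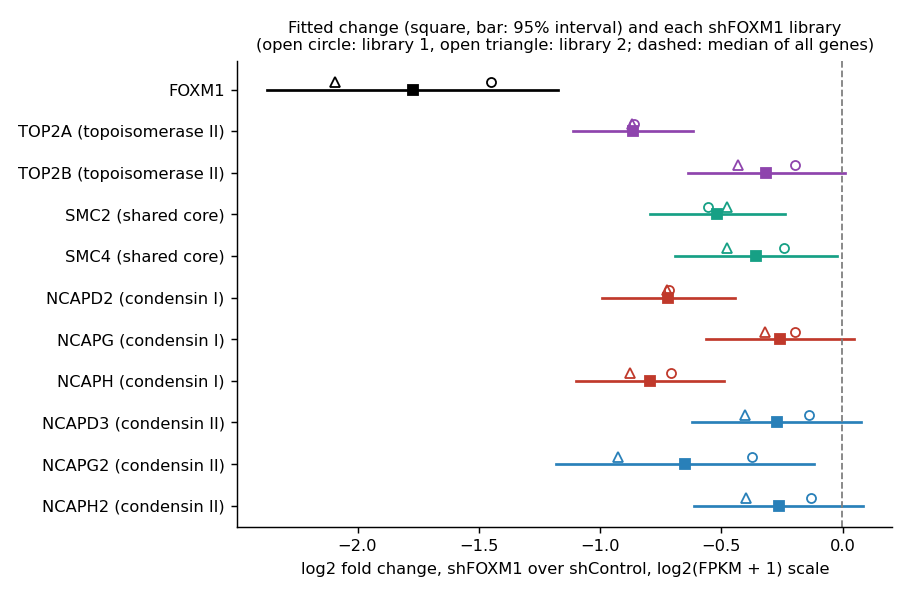
Log2 fold change of shFOXM1 over shControl (x axis, log2(FPKM + 1) scale) for FOXM1 and the 10 genes. Squares are limma estimates with 95% intervals, open circles and triangles are shFOXM1 1 and 2 against the shControl mean, and the dashed line is the median of all genes tested. TOP2A, NCAPD2 and NCAPH lie between -0.86 and -0.72. The shFOXM1 libraries nearly coincide for TOP2A and NCAPD2 and lie at -0.71 and -0.88 for NCAPH. Among the 10 genes NCAPG2 has its shFOXM1 libraries furthest apart, at -0.38 and -0.93.

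The subunits of condensin II depended more on which shFOXM1 library was read. NCAPG2, a HEAT-repeat subunit, was at 17.6 and 11.7 FPKM in shFOXM1 1 and 2, against 23.5 and 22.6 FPKM in shControl 1 and 2, and its shFOXM1 libraries differed by 5.88 FPKM, more than the 5.06 FPKM between the groups. NCAPD3, its partner, was at 23.8 and 19.7 FPKM in shFOXM1 1 and 2, against 27.1 and 25.6 FPKM in shControl 1 and 2. NCAPH2, the kleisin, was at 24.3 and 20 FPKM in shFOXM1 1 and 2, against 26.7 and 26.7 FPKM in shControl 1 and 2. For all 3 genes, shFOXM1 2 was the lowest library and shFOXM1 1 lay between it and the controls.

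NCAPG2 had a log2 fold change of -0.65 (SE 0.21, 95% interval -1.18 to -0.12; limma, adjusted p = 0.233). NCAPD3 had -0.27 (SE 0.13, 95% interval -0.62 to 0.08; limma, adjusted p = 0.364) and NCAPH2 -0.26 (SE 0.13, 95% interval -0.61 to 0.08; limma, adjusted p = 0.371). Against the shControl mean, NCAPG2 lay at -0.38 in shFOXM1 1 and -0.93 in shFOXM1 2, NCAPD3 at -0.14 and -0.40, and NCAPH2 at -0.13 and -0.40. NCAPD3 (ENSG00000151503) is on chromosome 11, minus strand, between 134150119 and 134225454, NCAPG2 (ENSG00000146918) on chromosome 7, minus strand, between 158631311 and 158704829, and NCAPH2 (ENSG00000025770) on chromosome 22, plus strand, between 50508216 and 50523472.

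Set side by side, the subunits particular to condensin I had a log2 fold change of -0.72 in the median and those of condensin II -0.27. In each, 0 of 3 were called. These medians are the values of NCAPD2 and NCAPD3, and the complexes overlapped. NCAPG of condensin I had -0.26 and NCAPG2 of condensin II had -0.65. The medians by library were -0.71 and -0.72 in shFOXM1 1 and 2 for condensin I, and -0.14 and -0.40 for condensin II. Summed over its 3 subunits, condensin I stood at 59.5 and 55.9 FPKM in shFOXM1 1 and 2, against 92.1 and 87.7 FPKM in shControl 1 and 2, and condensin II at 65.7 and 51.3 FPKM in shFOXM1 1 and 2, against 77.3 and 75 FPKM in shControl 1 and 2. Condensin I over condensin II was 0.905 and 1.09 in shFOXM1 1 and 2, against 1.19 and 1.17 in shControl 1 and 2. The order held in both libraries, but the shFOXM1 ratio averaged 0.997 ± 0.13 against 1.18 ± 0.0151 in shControl (SD, n = 2 each; exact permutation p of 0.333), and most of the difference lay in shFOXM1 1.

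**Figure D3:**
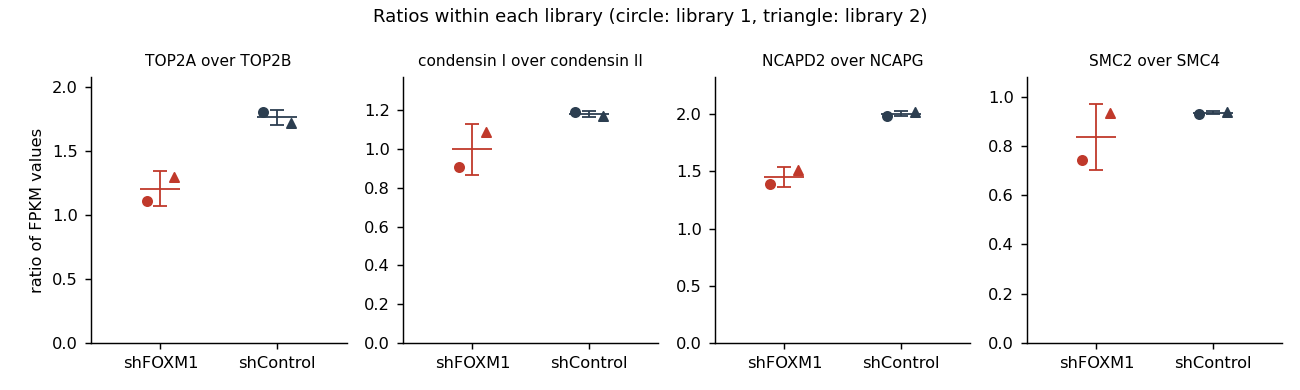
Ratios of FPKM values within each library (y axis, from 0) in shFOXM1 (red, left) and shControl (dark, right), with mean and SD (n = 2 each; circle library 1, triangle library 2). TOP2A over TOP2B and NCAPD2 over NCAPG do not overlap between the groups, condensin I over condensin II comes near to it in shFOXM1 2 at 1.09 against 1.17 in shControl 2, and SMC2 over SMC4 coincides with shControl in shFOXM1 2.

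The order of the levels differed between the groups, with NCAPH further down in shFOXM1. In shFOXM1, TOP2A (53.8 ± 0.265 FPKM) and TOP2B (45 ± 5.35 FPKM) led, followed by NCAPD2 at 25.3 ± 0.107, NCAPH2 at 22.2 ± 3.06, NCAPD3 at 21.8 ± 2.93, SMC4 at 17.9 ± 2.18, NCAPG at 17.5 ± 1.1, SMC2 at 14.9 ± 0.597, NCAPH at 14.9 ± 1.3 and NCAPG2 at 14.6 ± 4.16 FPKM (SD, n = 2). The libraries of NCAPH2 and NCAPD3 overlapped in level, as did those of SMC4 and NCAPG, and those of SMC2, NCAPH and NCAPG2; NCAPG2, whose libraries lay far apart, also overlapped with NCAPG and SMC4. In shControl, TOP2A (98.8 ± 1.14 FPKM), TOP2B (56.1 ± 1.27 FPKM) and NCAPD2 (42.4 ± 2.39 FPKM) stood apart from each other and from the rest, and NCAPH2 at 26.7 ± 0.0421, NCAPH at 26.4 ± 0.752 and NCAPD3 at 26.4 ± 1.02 FPKM could not be told apart. Below them came SMC4 at 23.2 ± 0.647, NCAPG2 at 23.1 ± 0.653, SMC2 at 21.7 ± 0.458 and NCAPG at 21.1 ± 1.44 FPKM (SD, n = 2), where SMC4 overlapped with NCAPG2 and SMC2 with NCAPG.

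The shared hexamer of the promoters is shown for the members that have it, since these genes stood lower together. Windows of 300 bases were found for 9 of the 10 genes, 13 windows in all because some genes have a second annotated start, and 8 windows of 8 genes held the hexamer on either strand, against 15.2% of all 35116 windows. The exception among the 9 was NCAPH, whose fold change was the second lowest of the set. No window held the single forkhead spelling searched, TGTTTA (or TAAACA), which 12.3% of all windows hold. Other forkhead spellings were not searched, so forkhead sites may still lie in these windows. A CCAAT box was found in 5 of the 13 windows, a share near the 34.6% of all windows, with 4 copies before the start of NCAPD2. The motifs were picked with the windows and the fold changes known, and a match is a description of the letters only. Each line gives up to 12 bases on either side of the hexamer (capitals), read on the strand where it spells TTTGAA (RefSeq, GRCh38.p14).
TOP2A, chr17:40418073-40418102, minus strand: cgagtggtgcctTTTGAAgcctctctagtc
TOP2A, chr17:40418030-40418059, plus strand: ggccggggtttgTTTGAAtaaaccaatcag
TOP2B, chr3:25665117-25665146, plus strand: gtgggttttccaTTTGAAgggagagcaggg
SMC2, chr9:104094294-104094323, minus strand: actatttattccTTTGAAtttcggcgcgag
SMC4, chr3:160399563-160399592, minus strand: gggatccactaaTTTGAAaaaaagtgcggc
NCAPD2, chr12:6493945-6493974, plus strand: cagccgttgagaTTTGAActcggtatttgt
NCAPG, chr4:17810932-17810961, plus strand: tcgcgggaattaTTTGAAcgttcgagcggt
NCAPD3, chr11:134223953-134223982, minus strand: gcgggagcgagcTTTGAAagttgagcacgg
NCAPG2, chr7:158704755-158704781, minus strand: ccggcgggtgcgTTTGAAtctggtccg

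The hexamer's place differed from gene to gene, and it did not sort the genes by fold change. It began 35 bases before the start of NCAPG, 3 bases before one annotated start of SMC2 and of NCAPD3, and 75 bases before one start of SMC4. In NCAPG2 it lay 35 bases after the start, and in TOP2B 227 bases before one of its starts. NCAPG, with a match near its start, had a log2 fold change of -0.26, while NCAPH, with none in its window, had -0.79.

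**Figure D4:**
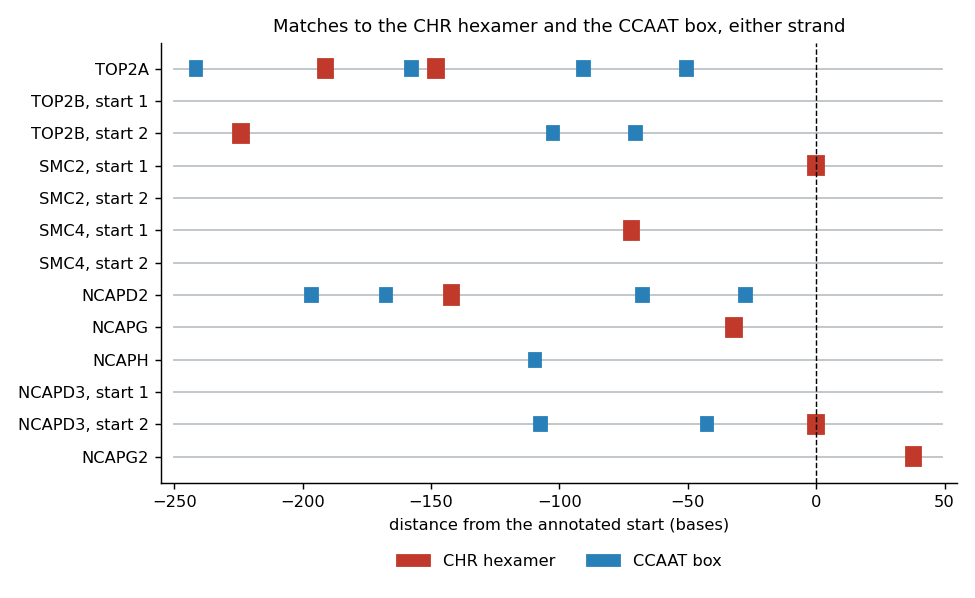
Matches to the CHR hexamer (red) and the CCAAT box (blue), on either strand, by distance in bases from the annotated start (x axis, dashed line at 0) in the 13 windows of 9 genes. TOP2A and NCAPD2 each hold 4 CCAAT boxes, and NCAPH holds no hexamer.

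Genes whose 4 levels ran most like those of TOP2A were sought among 7240 genes with a mean of at least 5 FPKM, by the Euclidean distance between log2(FPKM + 1) values centred on the shControl mean, over 4 libraries. Among the nearest were CBX5 (distance 0.0773), a heterochromatin protein, NRM (0.0889), a nuclear envelope protein, CEP55 (0.123), which acts in the last step of cytokinesis, and SLFN12L (0.129). CBX5 was at 3.65 and 3.31 FPKM in shFOXM1 1 and 2, against 7.21 and 7.25 FPKM in shControl 1 and 2. The scale understates the change of such low genes: by mean FPKM, CBX5 differed by -51.8% and TOP2A by -45.5%. In shFOXM1 the means of CBX5 and SLFN12L were 3.48 and 4.04 FPKM, so both reached the 5 FPKM cut only through shControl. Among the condensin subunits, NCAPH came 10th in that order (0.161) and NCAPD2 26th (0.216), while NCAPG came 1157th and NCAPH2 1179th.

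Partners of condensin and topoisomerase II on mitotic chromosomes stood lower beside them. Of 13 listed partners, all measured, 11 had a lower mean in shFOXM1, against 50.1% of all genes tested, 8 were lower at an unadjusted limma p under 0.05, against 8.99%, and 0 passed the test over all genes. Their median log2 fold change was -0.52. KIF4A, a chromokinesin that works with condensin I on the chromosome axis, was at 7.47 and 7.25 FPKM in shFOXM1 1 and 2, against 11.5 and 11.7 FPKM in shControl 1 and 2. CDK1, whose phosphorylation activates condensin, was at 20.2 and 15.6 FPKM in shFOXM1 1 and 2, against 34.8 and 33.1 FPKM in shControl 1 and 2. AURKB, a mitotic kinase that promotes loading of condensin I, had a log2 fold change of -0.57 and MKI67, which coats mitotic chromosomes, of -0.66. MCPH1, which restrains condensin II, overlapped between the groups, at 2.88 and 2.6 FPKM in shFOXM1 1 and 2, against 2.62 and 2.3 FPKM in shControl 1 and 2; it was named after its values were seen.

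The other topoisomerases and their helpers mostly had lower means, with exceptions. Of 11 listed, 10 were measured, with a median of -0.25 on the log2 scale. Of these, 8 had a lower mean, against 50.1% of all genes tested, and 2 a higher one. Without overlap, 6 were lower, against 25.9%, and 1 was higher. At an unadjusted limma p under 0.05, 5 were lower, against 8.99%, and 0 passed limma's test over all genes. ERCC6L, a translocase of ultrafine anaphase bridges, where TOP2A also acts, was at 4.61 and 4.03 FPKM in shFOXM1 1 and 2, against 7.54 and 6.03 FPKM in shControl 1 and 2. BLM and its partners RMI1 and RMI2, which dissolve joined DNA molecules with topoisomerase III, had log2 fold changes of -0.48, -0.51 and -0.70. TOP3A, a topoisomerase III, had -0.15 and overlapped between the groups. It was at 16.1 and 14.6 FPKM in shFOXM1 1 and 2, against 16.1 and 18.2 FPKM in shControl 1 and 2. TOP3A was named after its values were seen. TDP2, which removes trapped topoisomerase II from DNA ends, had higher values, at 22.3 and 21.6 FPKM in shFOXM1 1 and 2, against 18.6 and 19.3 FPKM in shControl 1 and 2 (log2 fold change 0.20; limma, adjusted p = 0.381), and TOP1, the type I enzyme, had -0.12; both were named after their values were seen.

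The relatives of condensin, cohesin and the SMC5/6 complex, lay nearer to zero. Of 12 listed members, all measured, 9 had a lower and 3 a higher mean and 0 passed limma's test; the median log2 fold change was -0.17. SMC1A, a cohesin ATPase, was at 21.9 and 18.8 FPKM in shFOXM1 1 and 2, against 28.4 and 26.5 FPKM in shControl 1 and 2. RAD21, the cohesin kleisin, had -0.24, NSMCE2, a ligase of SMC5/6, -0.41 and NSMCE3, of the same complex, 0.40. The difference between these lists and the condensins was not tested.

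**Figure D5:**
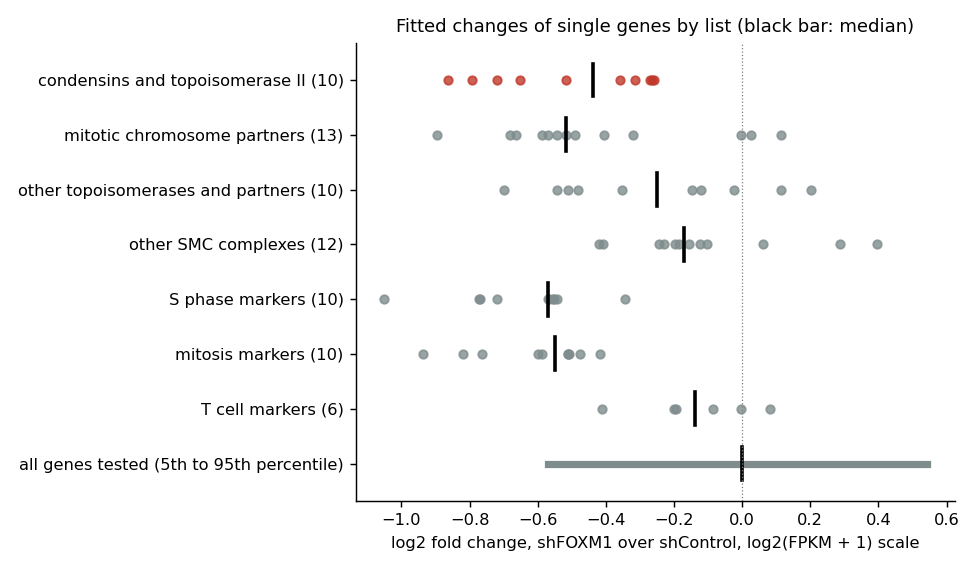
Log2 fold change of shFOXM1 over shControl (x axis, log2(FPKM + 1) scale), 1 point per measured gene, by list, with the list's median as a black bar; the bottom row spans the 5th to 95th percentile of all genes tested. The 10 condensin and topoisomerase II genes (red) lie between -0.86 and -0.26, the S phase and mitosis markers centre lower at -0.57 and -0.55, and the T cell markers at -0.14.

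Markers of cycling cells were lower alongside the set. All 10 S phase markers had a lower mean in shFOXM1 (median log2 fold change -0.57), with summed levels of 645 and 554 FPKM in shFOXM1 1 and 2, against 952 and 910 FPKM in shControl 1 and 2. All 10 mitosis markers did too (median -0.55). Their sums were 164 and 136 FPKM in shFOXM1 1 and 2, against 227 and 227 FPKM in shControl 1 and 2. In both lists 0 genes passed limma's test, and all 10 genes were lower without overlap, against 25.9% of all genes. At an unadjusted limma p under 0.05, 9 S phase and 8 mitosis markers were lower, against 8.99% of all genes. TK1, the thymidine kinase of S phase, had -1.05 and CENPA, the centromeric histone, -0.94. TOP2A over MKI67 was 1.72 and 2.13 in shFOXM1 1 and 2, against 2.21 and 2.16 in shControl 1 and 2. The part of cell cycle stage in the lower condensin and TOP2A levels was not tested. The 6 measured T cell markers had a median of -0.14, with 2 of the 6 lower without overlap, near the 25.9% of all genes. Against the shControl mean, their median was -0.0016 in shFOXM1 1 and -0.27 in shFOXM1 2. The list summed to 227 and 261 FPKM in shFOXM1 1 and 2, against 252 and 235 FPKM in shControl 1 and 2. The higher sum in shFOXM1 2 came from CD3D, at 95.1 and 154 FPKM in shFOXM1 1 and 2, against 125 and 118 FPKM in shControl 1 and 2. Markers of B cells, monocytes, fibroblasts and endothelium, and keratinocytes, 4 of each, had 1 measured member apiece, and their values differed between the shFOXM1 libraries. CD79A of B cells was at 0.27 and 7.38 FPKM in shFOXM1 1 and 2, against 1.73 and 1.44 FPKM in shControl 1 and 2, and CDH1 of epithelium at 2.37 and 8.34 FPKM in shFOXM1 1 and 2, against 5.66 and 4.48 FPKM in shControl 1 and 2. COL1A1, a collagen of fibroblasts, was at 3.23 and 4.48 FPKM in shFOXM1 1 and 2, against 2.5 and 2.75 FPKM in shControl 1 and 2, and CSF1R, a receptor of monocytes, at 13.5 and 8.47 FPKM in shFOXM1 1 and 2, against 12.8 and 9.04 FPKM in shControl 1 and 2. The shFOXM1 2 library thus held the highest values of CD79A, CDH1 and COL1A1, and the part of these markers in the levels of the 10 genes was not tested.

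Neighbours on the opposite strand may limit some counts, since no source used here says whether the authors' counting used strand. The overlaps given are of whole gene spans, and whether they fall in exons was not checked. The first part of NCAPD2 overlaps MRPL51 by 486 bases, and MRPL51 was at 43.1 and 47 FPKM in shFOXM1 1 and 2, against 43.2 and 43.6 FPKM in shControl 1 and 2. NCAPD3 overlaps VPS26B by 810 bases, and VPS26B was at 20.2 and 15.6 FPKM in shFOXM1 1 and 2, against 17 and 16.5 FPKM in shControl 1 and 2, so that shFOXM1 2 was the lower shFOXM1 library for both genes. SMC4 overlaps TRIM59 by 2518 bases and NCAPG overlaps LCORL by 3664 bases; LCORL had at most 1.45 FPKM and TRIM59 at most 5.89 FPKM. MIR15B and MIR16-2, the microRNAs inside SMC4, were listed at 0 in all libraries. Pseudogene copies named for SMC4, NCAPD2 and NCAPG were listed at 0 as well.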

How the data were processed

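The authors deposited one table of FPKM values for 58735 genes in 4 libraries, with each gene's length in bases, per the file headers. Which aligner and counter were run, and whether strand was used, is not given in the sources used here. Mouse builds (GRCm38, mm10) stand in the submitters' processing notes, but the identifier, start and end of all 58735 genes match human GENCODE release 29 (GRCh38). Columns named sh0 were read as shControl, and sh1 and sh2 as shFOXM1 1 and 2. Multiplying FPKM by length gave whole reads (100% of values, tolerance 0.001 read), and the totals that the FPKM imply differed from these reads by -1.44 and 3.8% in shFOXM1 1 and 2, against 0.319 and -0.173% in shControl 1 and 2. Per the labels' protocols, total RNA was column-purified.

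The test of shFOXM1 over shControl was limma 3.58.1 (R 4.3.3; trended empirical Bayes, two-sided) on log2(FPKM + 1), for genes reaching 1 FPKM in 2 or more libraries, with Benjamini-Hochberg adjustment over all of them. The script was tested on simulated data whose spread was taken from the shControl libraries. The shFOXM1 libraries stood further apart than that, so the simulation does not show the power of the test here. Alternatives were other pseudocounts and filters, quantile normalization, a replicate block, no trend, voom on the recovered reads with and without library weights, and each library left out; rescaling to the recovered totals was added after seeing the data. The 10 genes, the lists and the tests were chosen with earlier results of these data known. Named genes were FOXM1, the 10 genes, up to 4 per list by smallest unadjusted p and the 5 nearest to TOP2A; one gene so taken is not reported here, and not every other is described. Counting error was at most 3.79% of a condensin or topoisomerase II gene's value in any library. Promoter windows came from RefSeq (GRCh38.p14).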

Additional observations from a re-analysis of the deposited data

How the results depend on the processing

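All 10 genes kept a lower level in shFOXM1 under every alternative run, and the median log2 fold change of the condensin I subunits ran from -0.76 to -0.66. That of the condensin II subunits ran from -0.40 to -0.14 and was -0.14 without shFOXM1 2, where NCAPG2 stood at -0.38, NCAPD3 at -0.14, NCAPH2 at -0.13 and TOP2B at -0.20. Over FOXM1 and the 10 genes, 137 of 154 values stayed on the same side of the threshold and 17 newly passed it. Genes called numbered 0 in each direction except in the following fits. Leaving out single libraries gave 0 to 1914 genes lower and 0 to 1481 higher, and calls of the set came only without an shFOXM1 library, where the spread is that of shControl and the lone shFOXM1 library is assumed to vary likewise. Without shFOXM1 1, 9 of the 10 were called (all but NCAPG), against 16.3% of genes called lower. Without shFOXM1 2, 4 were called (SMC2, NCAPD2, NCAPH and TOP2A), against 4.21%. Voom with library weights called 9 genes lower and 17 higher, TOP2A among the lower ones at an adjusted p of 0.0321; TOP2A's adjusted p ran from 0.00743 to 0.674 over the alternatives. The cause was not tested. At an unadjusted p under 0.05 limma had 1082 genes lower and 1061 higher, and voom without weights, which also called 0, had 1135 and 1106. Libraries with the same number deviated from their group means with a correlation of 0.0421 over 2 pairs, and the replicate block called 0 genes, with medians of -0.72 for condensin I and -0.27 for condensin II. Depth did not limit these genes, whose lowest count was 696 reads.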
